A study of Homo sapiens with 12 samples.

Results

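The genes described here are 38 genes of glutathione and cystine metabolism and of the NRF2 antioxidant response. They were taken by symbol from a list drawn up by function, with earlier results of these data known. All 38 were found among the 27788 symbols of the count files and in the FPKM files. The 12 RNA-seq libraries came from HCT116, a line from a human colorectal carcinoma, and U-87 MG, a human glioblastoma line. Each line has 3 libraries of cells in which GSTO1 was mutated with CRISPR-Cas9 (KO) and 3 labelled wild type (WT). Per the labels' protocols, the lines carried a lentiviral Cas9 with blasticidin selection and received a crRNA against exon 2 of GSTO1 or a control crRNA without a target, after which individual colonies were picked and screened. The sources used here do not give the number of colonies behind a KO group, or whether the WT cells received the control crRNA. GSTO1 encodes glutathione S-transferase omega 1, an enzyme that uses glutathione as its cofactor.

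Glutathione is a tripeptide of glutamate, cysteine and glycine and the main small thiol of the cell. Its cysteine comes from imported cystine or from methionine by transsulfuration, and it is made by the enzymes glutamate-cysteine ligase and glutathione synthetase. NRF2, the transcription factor encoded by NFE2L2, raises many of these genes together with thioredoxin, peroxiredoxin and aldo-keto reductase genes, and is held low by KEAP1, which directs it to degradation. NRF2 binds DNA at the antioxidant response element with a small MAF protein.

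Libraries held between 17814142 and 28097179 counts. GSTO1 was lower in each KO library than in each WT library of its line, at 17.1, 14.6 and 15.7 CPM (counts scaled to library size) against 63.9, 64.7 and 61.4 CPM in HCT116 and 25.02, 23.8 and 25.2 against 143, 142 and 117 CPM in U-87 MG. To check the lines, marker lists were read: of 10 epithelial markers, 8 had a mean above 1 FPKM in each HCT116 group. In U-87 MG 7 of 10 mesenchymal and glioma markers did, while GFAP, SOX2 and S100B, which mark glia, were below 0.1 FPKM. PTPRC and CD3E, which define leukocytes and T cells, were below 0.1 FPKM in every group. The summed leukocyte list was at 179 to 220.2 FPKM in WT and 299 to 311 FPKM in KO U-87 MG libraries, with 1 marker above 1 FPKM in each group. In U-87 MG WT every listed marker other than CD68 was below 0.1 FPKM, and in KO every one other than CD68 and CD14. Ribosomal RNA reads of RNR2 took 1.36 to 1.54% of counts in KO against 0.981 to 1.06% in WT HCT116 libraries, while the U-87 MG shares were 0.419 to 0.435% (KO) and 0.254 to 0.322% (WT). In HCT116 the summed mesenchymal and glioma list, with 5 of 10 markers above 1 FPKM in both groups, was at 180 to 184 FPKM in KO and 110 to 114 FPKM in WT libraries, and the epithelial list at 1854 to 2044 and 2059 to 2177 FPKM. In U-87 MG the epithelial list, with 1 of 10 above 1 FPKM, was at 4.81 to 5.30 FPKM in KO and 8.38 to 8.96 FPKM in WT libraries. The part of these shifts in the results was not tested. U-87 MG WT replicate 3 stood apart from the other WT libraries of its line, its counts differing from theirs with chi-square values of 8.21 and 9.31 per degree of freedom, against 2.38 between those. In HCT116 replicate 3 also differed most, at 5.56 and 5.40 against 1.80 among KO libraries and at 3.63 and 3.46 against 1.48 among WT libraries. Nothing in the labels says that libraries are separate cultures, and the p-values therefore reflect the spread among libraries alone, which may be technical.

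A gene was called where it differed by more than 1.5-fold with a Benjamini-Hochberg adjusted p below 0.05 from edgeR, and its mean FPKM exceeded 0.5. FPKM is scaled for transcript length and depth, so levels of different genes can be compared on it, while CPM is not scaled for length. Where KO and WT values are said to overlap or not, this only describes the libraries. The share of all genes without overlap was not computed, and for called genes it adds little to the call. In HCT116, 33 of the 38 members passed the filter on low counts and were tested, and 6 of these were called, 3 up and 3 down in the KO libraries. That is 18.2% of the tested members, beside 11.9% of all 14068 genes tested (7.82% up and 4.07% down). In U-87 MG, 35 were tested and 5 were called, 2 higher and 3 lower, or 14.3% beside 16.2% of all 13741 genes tested (8.06% higher and 8.15% lower). Without WT replicate 3 of U-87 MG 4 were called. For the difference between the lines, 7 of 36 tested members were called, 3 higher and 4 lower in HCT116, beside 16.9% of 15613 genes (9.66% and 7.24%). At the adjusted p alone 19 of 36 passed, beside 41.9% of all genes. The share in U-87 MG lay near that of all genes. The larger share in HCT116 rests on 6 genes of a list drawn up with earlier results known. The members' median log2 fold change was -0.17 in HCT116 and -0.03 in U-87 MG, beside 0.01 for all genes tested in either line. No member was called in both lines, but the share of all genes called in both was not computed, so nothing is drawn from it.

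**Figure D1:**
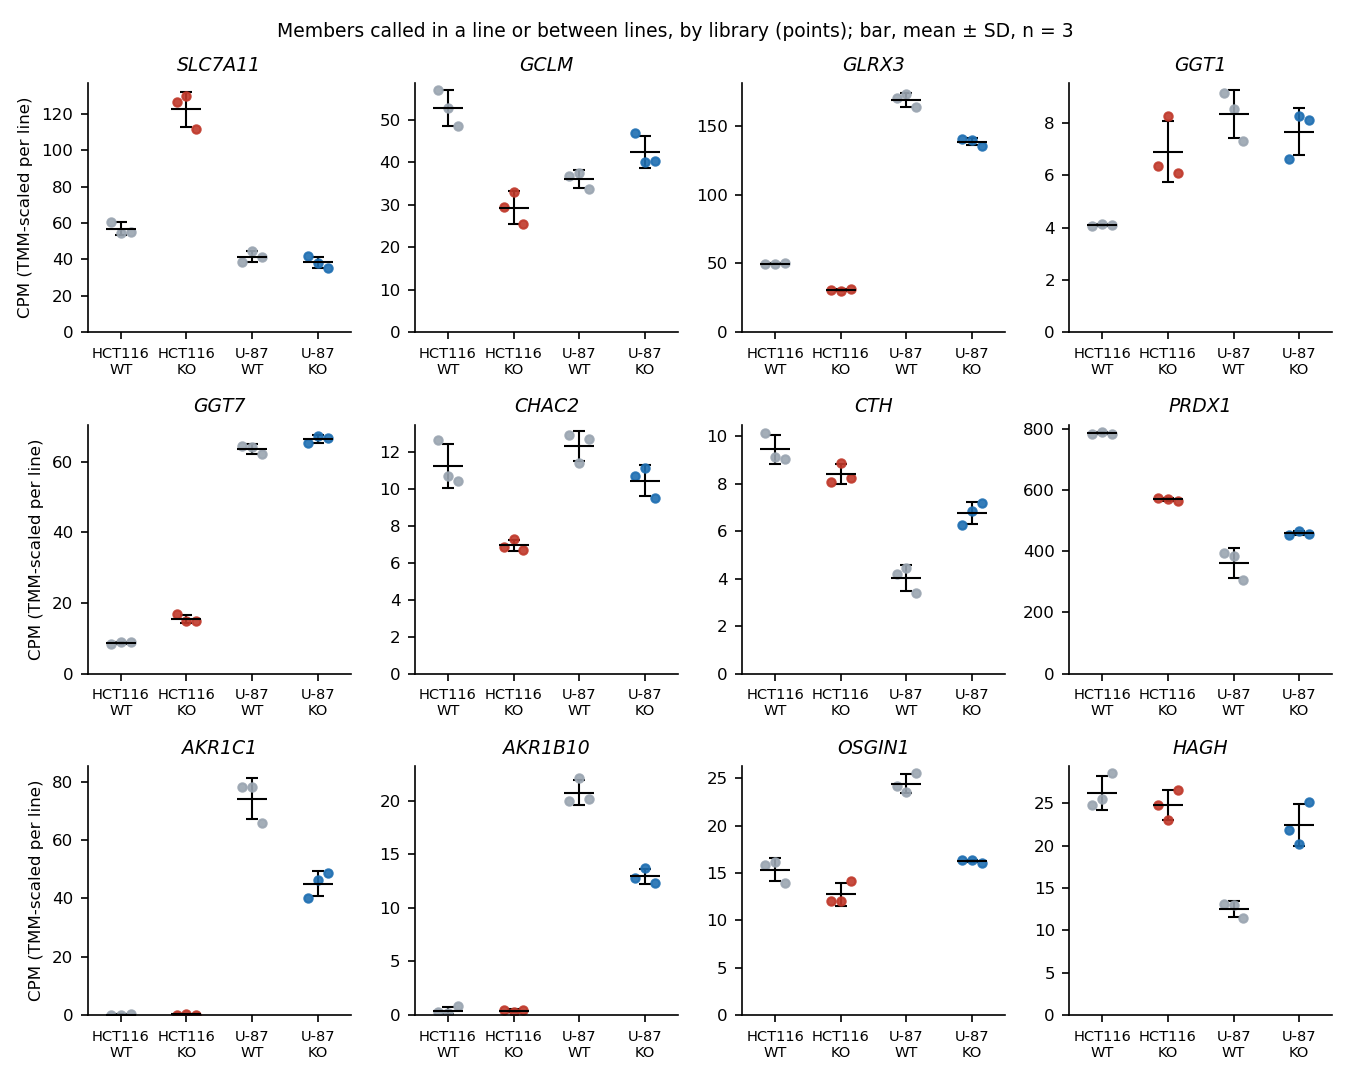
Depth-scaled counts (CPM, linear axis from 0) of the 12 members called in a line or for the difference between lines. Each point is a library, the horizontal bar the mean and the whisker the SD of 3 libraries. SLC7A11 more than doubled in HCT116 KO libraries (111 to 129.6 CPM) and lay at 35.4 to 44.3 CPM in all U-87 MG libraries, while AKR1C1 and AKR1B10 stood near 0 in HCT116.

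Among the genes that supply cystine and build glutathione, SLC7A11 rose and GCLM fell in HCT116 KO cells, while GCLC differed by less than its spread. SLC7A11, the transport subunit of the cystine-glutamate exchanger, had 126, 129.6 and 111 CPM in KO libraries against 60.8, 54.3 and 55.1 CPM in WT libraries. The KO values all lay above the WT values (log2 fold change 1.11, SE 0.06, adjusted p = 9.2e-12 by edgeR). GCLM, the modifier subunit of glutamate-cysteine ligase, was at 29.5, 33.1 and 25.5 CPM in KO against 57.1, 52.9 and 48.6 CPM in WT libraries. It fell without overlap between the groups (log2 fold change -0.86, SE 0.08, adjusted p = 3.2e-08 by edgeR). GCLC, the catalytic subunit of the same enzyme, was at 70.5, 65.9 and 60.6 against 66.1, 71.3 and 65.01 CPM, with overlapping groups (log2 fold change -0.04, edgeR adjusted p = 0.566). The ratio of GCLC to GCLM on the FPKM scale was therefore 3.03 ± 0.291 (SD, n = 3) in KO and 1.71 ± 0.140 in WT HCT116 libraries. GSS, glutathione synthetase, which adds glycine, had log2 fold changes of 0.22 in HCT116 and 0.16 in U-87 MG, past the adjusted p in both but under 1.5-fold.

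In U-87 MG the same genes stayed under the threshold. SLC7A11 was at 41.6, 37.7 and 35.4 CPM in KO and 38.4, 44.3 and 41.4 CPM in WT libraries, which overlapped (log2 fold change -0.11, edgeR adjusted p = 0.1795). GCLM was at 46.9, 40.2 and 40.4 against 36.9, 37.6 and 33.6 CPM, so that each KO value was the higher, but by 1.18-fold (log2 fold change 0.24, SE 0.07, adjusted p = 0.00555 by edgeR). GCLC was at 44.1, 42.3 and 40.5 against 43.5, 40.3 and 40.7 CPM, with overlap. The ratio of GCLC to GCLM was 1.34 ± 0.0696 in KO and 1.55 ± 0.0960 in WT libraries on the FPKM scale, the reverse order of HCT116. The KO effect differed between the lines for both called genes, with a log2 difference (HCT116 minus U-87 MG) of 1.23 (SE 0.09, edgeR adjusted p = 2.6e-12) for SLC7A11 and -1.09 (SE 0.11, edgeR adjusted p = 4.9e-09) for GCLM.

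On GRCh38 (GENCODE release 44), SLC7A11 lies on the minus strand of chromosome 4 from 138164097 to 138242349 and GCLM on the minus strand of chromosome 1 from 93885199 to 93909456. SLC7A11-AS1 covers 8.97% of the exon bases of SLC7A11 on the other strand, and it held no counts in any HCT116 library. GCLC lies on chromosome 6 from 53497341 to 53616970, also on the minus strand.

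Promoter sequences are shown for GCLM, which fell in HCT116, for GGT1, which rose there, and for KEAP1, because all 3 hold a match to the core of the antioxidant response element, TGACNNNGC or its reverse complement GCNNNGTCA. The 80 bases before a RefSeq start of each gene (GRCh38.p14) are printed 5′ to 3′ on the gene's strand, with the matches in capitals. Where a gene has several starts, the start with a match is shown. The GENCODE spans of GGT1, KEAP1 and GCLM reach further upstream than these starts, to 24594811, 10503558 and 93909456. For GCLM that position lies within the printed bases. GCLM is chr1:93909431-93909510 on the minus strand, KEAP1 chr19:10502772-10502851 on the minus strand and GGT1 chr22:24603113-24603192 on the plus strand.
GCLM: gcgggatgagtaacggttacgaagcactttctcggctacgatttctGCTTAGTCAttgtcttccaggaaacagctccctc
KEAP1: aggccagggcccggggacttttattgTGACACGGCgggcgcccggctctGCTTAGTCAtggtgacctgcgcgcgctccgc
GGT1: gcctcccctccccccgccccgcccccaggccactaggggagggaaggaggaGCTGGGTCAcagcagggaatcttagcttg
The match GCTTAGTCA occurs in GCLM from 34 to 26 bases and in KEAP1 from 31 to 23 bases before the start, the same 9 letters in both. RefSeq promoters, each of 250 bases before and 50 after a start, were matched by symbol for 29 of the 38 members, some with several starts, giving 41 promoters. SLC7A11, GSS, GSR, GLRX3, GGCT, OPLAH, PRDX1, PRDX6 and AKR1B10 had no entry and were not searched. Of the 41, 4 (9.76%) held the motif on either strand, the fourth being that of CBS, beside 13.3% of all 34943 promoters. The motif was therefore no more frequent in these windows than in promoters at large, and the letters alone say nothing of binding. TGATGNAA, a form of the element bound by ATF4, was in none of the 41 windows and in 3.62% of all promoters, counting both strands.

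Of 5 tested genes that break glutathione down or salvage its parts, 2 rose and 1 fell in HCT116, where 11.9% of all tested genes were called. GGT7, a gamma-glutamyltransferase family member, was at 16.8, 14.8 and 14.8 CPM in KO and 8.396, 8.78 and 8.82 CPM in WT libraries and rose (log2 fold change 0.83, SE 0.09, adjusted p = 2.3e-07 by edgeR). GGT1, the transferase that starts the breakdown of glutathione outside the cell, was at 6.36, 8.27 and 6.104 against 4.07, 4.12 and 4.104 CPM and rose (log2 fold change 0.75, SE 0.14, adjusted p = 1.2e-04 by edgeR). Both genes kept their KO libraries above all WT libraries, but 32.9% of the 50-base stretches of GGT1 also occur at other loci, so its value is uncertain. On log2(FPKM + 1) GGT1 lost its call in HCT116, at 0.46. CHAC2, which degrades glutathione in the cytosol, was at 6.86, 7.27 and 6.69 against 12.6, 10.7 and 10.4 CPM and fell (log2 fold change -0.70, SE 0.11, adjusted p = 1.5e-05 by edgeR). OPLAH, 5-oxoprolinase, which returns glutamate to the cycle, was 1.42-fold higher in KO libraries (28.2 ± 3.99 against 20.03 ± 1.06 CPM, edgeR adjusted p = 7.1e-05), under the 1.5-fold threshold. GGCT, gamma-glutamylcyclotransferase, passed the adjusted p in neither line (log2 fold changes -0.06 in HCT116 and -0.09 in U-87 MG, edgeR adjusted p = 0.328 and 0.331).

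The 4 of these genes tested in U-87 MG stayed under 1.5-fold. GGT7 was at 65.2, 67.3 and 66.8 against 64.5, 64.1 and 62.01 CPM and GGT1 at 6.64, 8.27 and 8.14 against 9.16, 8.56 and 7.33 CPM (log2 fold changes 0.06 and -0.13, edgeR adjusted p = 0.297 and 0.362), and the GGT1 groups overlapped. CHAC2 was at 10.7, 11.1 and 9.499 against 12.9, 11.4 and 12.7 CPM, lower at the adjusted p alone (log2 fold change -0.24, edgeR adjusted p = 0.0441). The log2 difference between the lines was 0.78 (SE 0.10, edgeR adjusted p = 9.4e-08) for GGT7 and 0.89 (SE 0.19, edgeR adjusted p = 2.6e-04) for GGT1, both called, and both under 1.5-fold on log2(FPKM + 1), at 0.58 and 0.54. For CHAC2 it was -0.45 (SE 0.15, edgeR adjusted p = 0.0136), under the fold threshold. ANPEP, an aminopeptidase that cleaves the dipeptide left by gamma-glutamyltransferase, held 0 to 9 counts per library and was tested in neither line.

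Transsulfuration was represented by CTH and CBS. CTH, cystathionine gamma-lyase, which releases cysteine, rose in U-87 MG, from 4.18, 4.46 and 3.41 CPM in WT to 6.25, 6.87 and 7.18 CPM in KO libraries without overlap (log2 fold change 0.74, SE 0.14, adjusted p = 9.2e-05 by edgeR). On log2(FPKM + 1) its change was 0.55 and was not called. In HCT116 it was at 8.09, 8.898 and 8.24 CPM in KO and 10.2, 9.13 and 9.06 CPM in WT libraries (log2 fold change -0.17, edgeR adjusted p = 0.1605), without overlap, and the difference between the lines was called, at -0.90 (SE 0.17, edgeR adjusted p = 6.0e-05).

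CBS, cystathionine beta-synthase, which forms cystathionine, showed a disagreement between the deposited units. It held 0 counts in all 12 libraries, as did CBSL, its annotated copy. The deposited FPKM of CBS was nevertheless 0.581, 0.633 and 0.664 in the U-87 MG KO libraries and 0.0156, 0.0832 and 0.0421 in the WT libraries, with no overlap, and 0.0365, 0.0346 and 0.0487 against 0.0634, 0.0394 and 0.0884 in HCT116. Of the 50-base stretches of CBS transcripts, 34.1% occur at another locus. With no counts it entered no test, and the count files cannot show its level.

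Of the enzymes that keep thiols reduced, GLRX3 was called. GLRX3, a cytosolic glutaredoxin that handles iron-sulfur clusters, was at 30.8, 29.96 and 31.6 CPM in KO and 49.7, 49.9 and 50.3 CPM in WT HCT116 libraries and fell (log2 fold change -0.70, SE 0.06, adjusted p = 6.1e-09 by edgeR). It was also lower in U-87 MG at the adjusted p alone, at 141, 139.9 and 136 against 170.4, 174 and 164 CPM (log2 fold change -0.29, edgeR adjusted p = 4.5e-06). Neither line's groups overlapped. GSR, glutathione reductase, was 1.37-fold lower in HCT116 KO libraries (158 ± 1.85 against 217 ± 1.397 CPM, edgeR adjusted p = 8.5e-09) and had a log2 fold change of 0.08 in U-87 MG. GLRX, the cytosolic glutaredoxin 1, was 1.48-fold higher in HCT116 KO libraries (20.5 ± 1.295 against 13.8 ± 0.781 CPM), just under the threshold, and was called without KO replicate 3 (log2 fold change 0.62) or without WT replicate 2 (0.61). The 20 tested genes within 5 Mb of GLRX had a median log2 fold change of 0.32 in that comparison. The mitochondrial GLRX2 and GLRX5 were lower in U-87 MG KO libraries at the adjusted p alone (log2 fold changes -0.36 and -0.42), as was GLRX5 in HCT116 (-0.31). SCARNA13 and SNHG10 cover 12.6% of the exon bases of GLRX5 on the other strand. SNHG10 itself had log2 fold changes of -0.31 in HCT116 and -0.42 in U-87 MG, and the part of this overlap was not tested.

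Among the members' chromosomes, those of GLRX5 and GGT1 had the lowest medians in U-87 MG, with 39.3% and 73.1% of their tested genes called. The median log2 fold change was -0.47 over 430 tested genes of chromosome 14 and -0.97 over 305 of chromosome 22. Within 5 Mb of GLRX5, 49 tested genes had a median of -0.42, the same as GLRX5 itself at -0.42. Within 5 Mb of GGT1, 90 tested genes had a median of -0.93 and 58 of them were called lower, whereas GGT1 was at -0.13. ESD lies on chromosome 13, where 238 tested genes had a median of -0.22, but its 51 neighbours within 5 Mb had a median of -0.01 beside -0.22 for ESD. The part of these chromosome-wide shifts in the members' values was not tested. In HCT116 the medians of the members' chromosomes lay between -0.07 and 0.04.

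**Figure D2:**
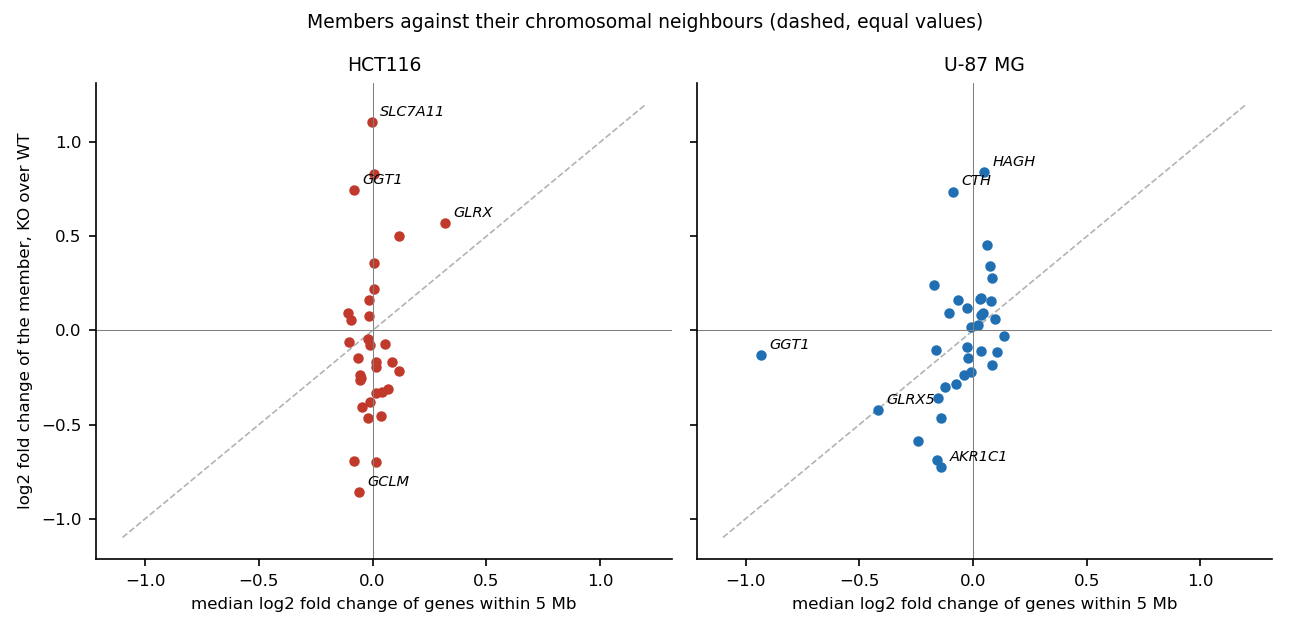
Each point is a tested member, with its own log2 fold change (KO over WT) on the vertical axis and the median of the other tested genes within 5 Mb on the horizontal axis, on linear axes. In U-87 MG, GLRX5 sits on the line of equal values at -0.42 and GGT1 lies above it, at -0.13 beside a neighbour median of -0.93, while SLC7A11 and GCLM in HCT116 sit where neighbours are near 0.

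NRF2 and KEAP1 transcripts differed by less than 1.5-fold in both lines. NFE2L2 was at 144, 141 and 129 CPM in KO and 135, 129 and 124 CPM in WT HCT116 libraries, and at 96.6, 93.98 and 99.5 against 90.97, 84.9 and 96.9 CPM in U-87 MG. The groups overlapped in both lines (edgeR adjusted p = 0.126 and 0.139), and 23.5% of the exon bases of NFE2L2 are covered by genes of the other strand. KEAP1 was at 87.2, 83.2 and 91.5 CPM in KO against 112, 111 and 118 CPM in WT HCT116 libraries, 1.30-fold lower without overlap (log2 fold change -0.38, SE 0.05, adjusted p = 2.1e-06 by edgeR). KEAP1 in U-87 MG had 93.1, 98.9 and 94.8 against 101, 94.6 and 87.3 CPM, with overlap (log2 fold change 0.02, edgeR adjusted p = 0.754).

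Among the 9 enzymes linked to NRF2, all tested in U-87 MG, 3 fell there and 3 more were lower at the adjusted p alone, with none higher. Of all genes tested in U-87 MG, 8.15% were called lower and 30.2% were lower at the adjusted p alone. These 9 are only a part of the list, and AKR1C1, AKR1C2 and AKR1C3 lie in 1 cluster. Other members went the other way in U-87 MG. At the adjusted p alone, 2 of 4 cystine and glutathione synthesis genes and 5 of 7 thioredoxin and peroxiredoxin genes were higher, and none lower. Of all tested genes, 29.0% were higher at the adjusted p alone. AKR1C1, an aldo-keto reductase of steroids and lipid aldehydes, had 40.3, 46.4 and 48.7 CPM in KO and 78.3, 78.4 and 66.04 CPM in WT libraries and fell (log2 fold change -0.72, SE 0.08, adjusted p = 1.3e-06 by edgeR). AKR1B10, a reductase of retinal and other aldehydes, fell from 19.99, 22.2 and 20.2 to 12.8, 13.7 and 12.4 CPM (log2 fold change -0.69, SE 0.08, adjusted p = 3.1e-07 by edgeR). OSGIN1, a gene induced by oxidative stress, was at 16.3, 16.3 and 16.1 CPM in KO and 24.2, 23.5 and 25.6 CPM in WT libraries, at the threshold itself (log2 fold change -0.59, SE 0.08, adjusted p = 6.8e-07 by edgeR). The KO and WT libraries of these 3 genes did not overlap. Tested genes within 5 Mb had U-87 MG medians of -0.14 around AKR1C1, -0.16 around AKR1B10 and -0.24 around OSGIN1. The median was -0.12 around NQO1, and 0.04, 0.14 and 0.09 around SRXN1, TALDO1 and TKT. The part of these regional shifts in the values was not tested. The call of OSGIN1 was lost without KO replicate 3 (-0.58), without WT replicate 3 (-0.56) and on both FPKM scales (-0.50 and -0.55), with the direction kept. Of the 50-base stretches of AKR1B10, 15.2% occur at other loci, and MLYCD covers 8.22% of the exon bases of OSGIN1 on the same strand.

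NQO1, the quinone reductase often used to read NRF2 activity, was at 383, 358 and 365 CPM in KO and 466, 469 and 429 CPM in WT U-87 MG libraries, lower at the adjusted p alone (log2 fold change -0.30, SE 0.04, adjusted p = 2.0e-06 by edgeR). In HCT116 the order was the opposite, at 334, 336 and 328 CPM in KO and 295, 301 and 295 CPM in WT libraries (log2 fold change 0.16, SE 0.04, adjusted p = 9.0e-04 by edgeR). Neither line's groups overlapped, and the difference between the lines was 0.47 (SE 0.06, edgeR adjusted p = 5.8e-08), under 1.5-fold. AKR1C2 and AKR1C3, steroid reductases of the same cluster, had log2 fold changes of -0.47 and -0.10 in U-87 MG (edgeR adjusted p = 3.3e-04 and 0.238). AKR1C1 and AKR1C2 are closely related copies, with 24.7% of the 50-base stretches of AKR1C1 found in AKR1C2 and 35.2% of those of AKR1C2 in AKR1C1, so reads may be split between them. Their summed level was 59.3 ± 5.39 CPM in KO and 93.7 ± 9.65 CPM in WT U-87 MG libraries (SD, n = 3), also without overlap.

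In HCT116 6 of these 9 enzymes were tested, 4 passed the adjusted p, which 57.3% of all tested genes did, and none reached 1.5-fold. SRXN1, sulfiredoxin, which repairs overoxidised peroxiredoxins, was 1.26-fold lower in KO libraries (edgeR adjusted p = 2.2e-06). The pentose phosphate enzymes TKT and TALDO1 had log2 fold changes of -0.20 and -0.07 in HCT116 and of -0.18 and -0.03 in U-87 MG. AKR1C1, AKR1C2 and AKR1C3 held 1 to 6 counts per HCT116 library and were not tested there. For these genes a KO effect in HCT116 was not detectable at this depth, and the difference between lines was not called for AKR1C1 (edgeR adjusted p = 0.0946) or AKR1B10 (edgeR adjusted p = 0.205). Without HCT116 WT replicate 3 both were called, at log2 differences of 2.24 and 1.59, and AKR1B10 held 4 to 17 counts per HCT116 library. OSGIN1 in HCT116 was at 12.1, 12.00 and 14.1 CPM in KO and 15.9, 16.2 and 13.96 CPM in WT libraries, with overlap (log2 fold change -0.27, edgeR adjusted p = 0.0203).

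**Figure D3:**
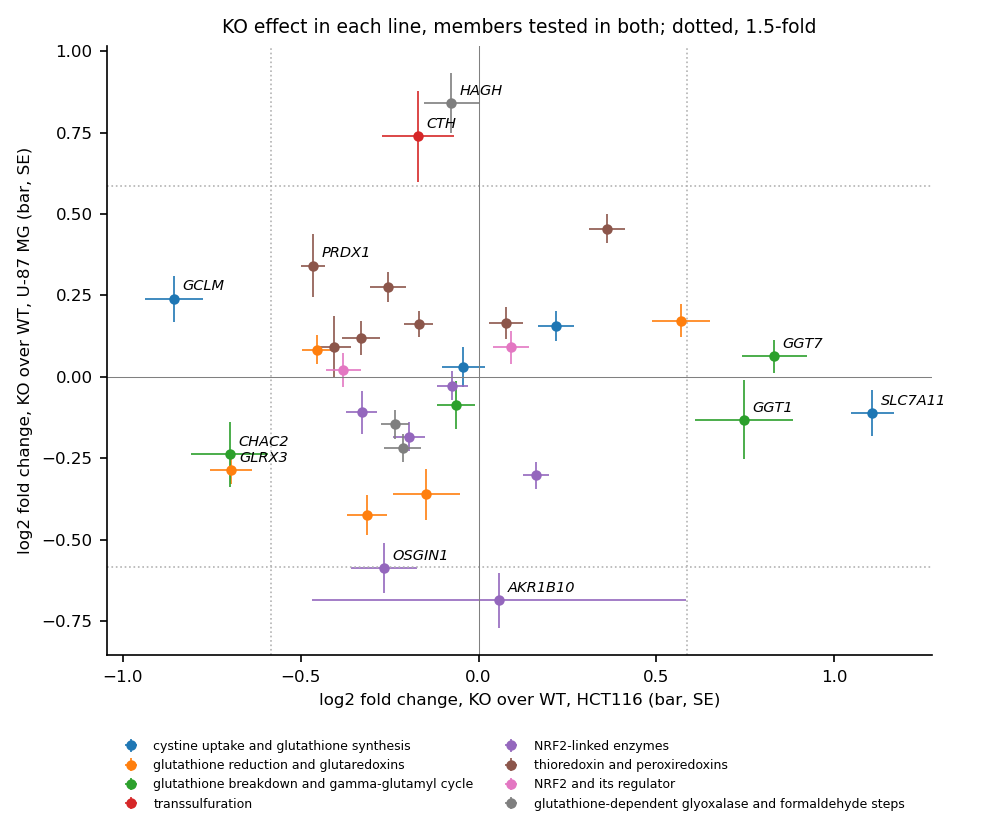
Log2 fold change (KO over WT) of the members tested in both lines, HCT116 on the horizontal and U-87 MG on the vertical axis, coloured by role, with SE bars and dotted lines at 1.5-fold. SLC7A11, GGT1 and GGT7 lie to the right near 0 on the vertical axis, HAGH and CTH lie at the top near 0 on the horizontal axis, and no point lies past 1.5-fold in both lines.

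Thioredoxin and the peroxiredoxins, which remove peroxides, differed by small amounts between KO and WT libraries. In HCT116 6 of 7 passed the adjusted p, 5 lower and 1 higher in KO libraries, and in U-87 MG 5 of 7 passed, all higher, with no fold above 1.5 in either line. Passing the adjusted p alone was common, at 57.3% of all tested genes in HCT116 and 59.3% in U-87 MG. In HCT116 29.2% were higher and 28.1% lower, and in U-87 MG 29.0% and 30.2%. PRDX1 and PRDX2 in U-87 MG missed the adjusted p in a fit without 1 library (edgeR adjusted p up to 0.0602 and 0.0536). PRDX1, a cytosolic peroxiredoxin, was at 575, 573 and 564 CPM in KO and 785, 792 and 786 CPM in WT HCT116 libraries (log2 fold change -0.47, SE 0.03, adjusted p = 5.4e-10 by edgeR). Its U-87 MG values were 453, 466 and 459 CPM in KO and 395, 386 and 306 CPM in WT libraries (log2 fold change 0.34, SE 0.10, adjusted p = 0.0253 by edgeR), where WT replicate 3 was the lowest. The difference between the lines was called, at -0.80 (SE 0.09, edgeR adjusted p = 6.4e-07), and stayed so without each library in turn, at -0.71 without that WT library. MMACHC covers 29.8% of the exon bases of PRDX1 on the other strand.

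PRDX5, found in mitochondria, peroxisomes and cytosol, was the 1 member of this group higher in both lines at the adjusted p, 1.28-fold in HCT116 and 1.37-fold in U-87 MG. The endoplasmic reticulum enzyme PRDX4 had log2 fold changes of -0.26 in HCT116 and 0.28 in U-87 MG, and the mitochondrial PRDX3 of -0.41 and 0.09. TXN, thioredoxin, was at -0.33 and 0.12, and PRDX6 at -0.17 and 0.16 (log2 fold changes, HCT116 first). PRDX2 was at 0.08 and 0.16, and only the value in U-87 MG passed the adjusted p. The summed FPKM of the 6 peroxiredoxins was 1347 ± 20.3 in KO and 1605 ± 5.72 in WT HCT116 libraries, and 1324 ± 26.8 in KO and 1059 ± 92.6 in WT U-87 MG libraries.

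HAGH, the glyoxalase II that frees glutathione from its lactate adduct, rose in U-87 MG, from 13.1, 12.9 and 11.4 CPM in WT to 21.9, 20.2 and 25.2 CPM in KO libraries (log2 fold change 0.84, SE 0.09, adjusted p = 6.3e-08 by edgeR). The 122 tested genes within 5 Mb had a median of 0.05. In HCT116 HAGH was at 24.8, 23.01 and 26.6 CPM in KO and 24.7, 25.5 and 28.5 CPM in WT libraries, which overlapped, and the difference between the lines was -0.91 (SE 0.13, edgeR adjusted p = 4.2e-07). GLO1, the glyoxalase I that forms that adduct from methylglyoxal, had log2 fold changes of -0.15 in U-87 MG and -0.24 in HCT116. ESD, which hydrolyses S-formylglutathione, was at -0.22 and -0.21. GLO1 and ESD passed the adjusted p in both lines, each lower in KO libraries and under 1.5-fold.

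Other genes of the pathway were read from lists of genes that are not members, beside calls for 11.9% of all genes in HCT116 (7.82% higher and 4.07% lower) and 16.2% in U-87 MG (8.06% and 8.15%). Of 17 tested genes that use glutathione as a substrate, 2 rose in HCT116 (GSTM2 and GSTZ1), while 2 rose and 1 fell in U-87 MG (GPX4, ETHE1 and, lower, GSTA4). Of 15 other genes of glutathione and cysteine metabolism, 3 rose and 1 fell in HCT116. Among these CHAC1, the stress-induced relative of CHAC2, had means of 44.2 ± 0.846 CPM in KO and 6.84 ± 0.211 CPM in WT libraries and rose (log2 fold change 2.69, SE 0.08, adjusted p = 3.9e-16 by edgeR), while CHAC2 fell. The gene that fell was GGT5, of the same family as GGT1 and GGT7, which rose. GGT5 was at 0.563 ± 0.153 CPM in KO and 3.23 ± 0.344 CPM in WT HCT116 libraries (log2 fold change -2.52, SE 0.25, adjusted p = 4.0e-08 by edgeR). It held 8 to 13 counts per HCT116 KO library. In U-87 MG edgeR and DESeq2 each called 0 of 14, with 10 at an unadjusted p under 0.05 in edgeR. Of 32 other NRF2 targets and partners, 3 rose and 2 fell in HCT116, and 2 rose and 4 fell in U-87 MG. FTL, the ferritin light chain, had log2 fold changes of -0.89 in HCT116 and 0.23 in U-87 MG. In the same order, the transporter gene ABCC3 had 1.19 and 0.29, and the haem transporter SLC48A1 had 0.32 and 1.67. ABCC4 (-0.001 and -1.62) and MAFF (0.49 and -1.59) were among the genes that fell in U-87 MG. The counts of this list and of the glutathione-using genes rest on 2 to 6 calls a line.

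More members differed between the WT cells of the 2 lines than between KO and WT cells of either line. HCT116 was sequenced with single and U-87 MG with paired reads, so line and read layout cannot be told apart. In the fit of all 12 libraries 21 of 36 tested members were called, 8 higher and 13 lower in HCT116, or 58.3% beside 55.2% of all 15613 genes (26.9% higher and 28.3% lower). The adjusted p alone was passed by 33 of 36, beside 87.4% of all genes. The AKR1C genes and AKR1B10 differed most among genes higher in U-87 MG, with AKR1C1 at 0.106 ± 0.0373 FPKM in HCT116 and 72.4 ± 6.97 in U-87 MG, AKR1C3 at 0.122 ± 0.0505 and 62.02 ± 6.46, and AKR1B10 at 0.162 ± 0.169 and 13.1 ± 1.21. OPLAH went the other way, with 18.9 ± 1.03 CPM in WT HCT116, here scaled over all 12 libraries, and 0 counts in the 3 WT U-87 MG libraries. Taking 3 counts over the WT U-87 MG group as the floor, it was at least 422-fold higher in HCT116. GGT7 (log2 difference -3.05, HCT116 minus U-87 MG), GLRX (-2.74) and GLRX3 (-1.94) were also higher in U-87 MG, and PRDX2 (1.58), GLO1 (1.31) and CTH (1.05) in HCT116.

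**Figure D4:**
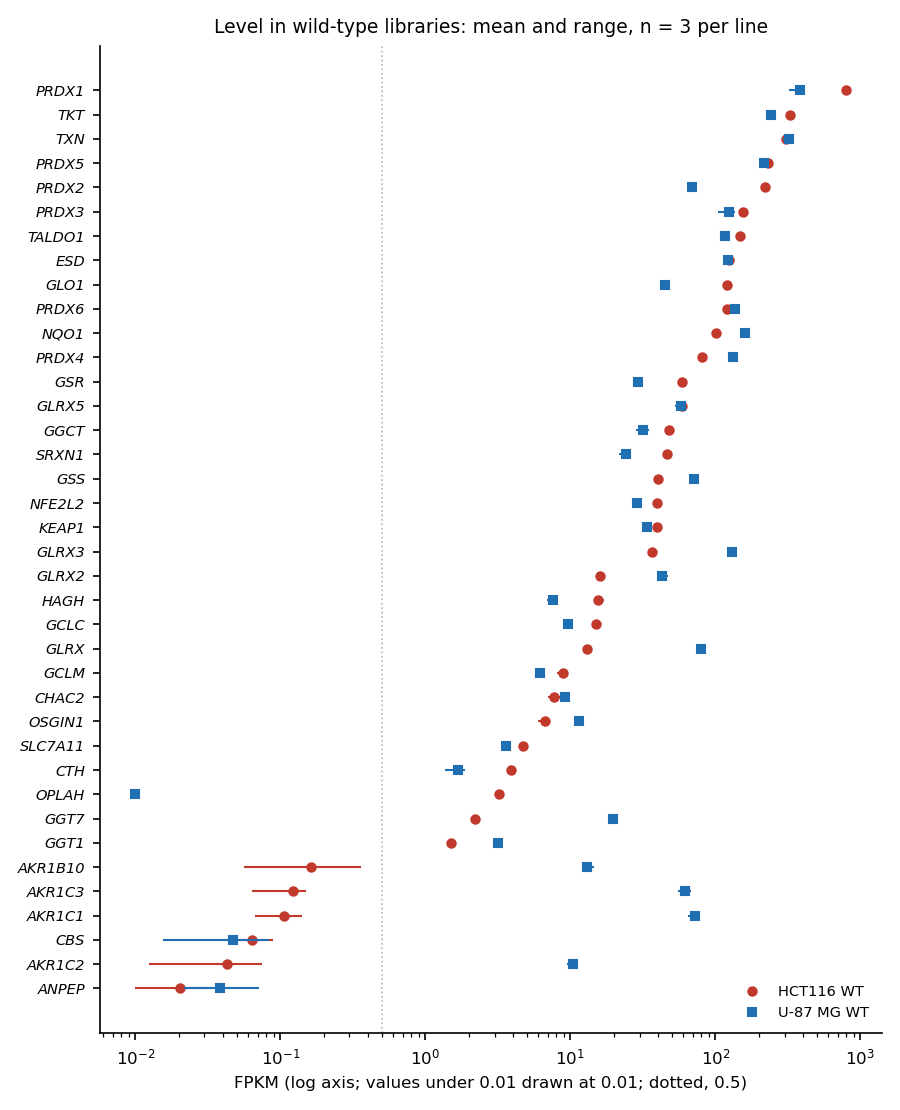
Mean FPKM (log axis) of each member in WT libraries of HCT116 (circles) and U-87 MG (squares), with a line from the lowest to the highest of 3 libraries, ordered by the HCT116 mean. PRDX1 is at the top with 797 FPKM in HCT116 and 380.3 FPKM in U-87 MG, and AKR1C1 lies near 0.1 FPKM in HCT116 and at 72.4 FPKM in U-87 MG.

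On the FPKM scale, PRDX1 was the highest member in both WT lines (797 ± 6.08 in HCT116 and 380.3 ± 51.6 in U-87 MG). In HCT116 TKT (326 ± 8.46) and TXN (308 ± 19.7) followed and did not differ beyond their spread, nor did PRDX5 (229 ± 11.3) and PRDX2 (221 ± 9.56). The glutathione synthesis genes were far lower, with GSS at 40.2 ± 1.65, GCLC at 15.1 ± 0.714, GCLM at 8.85 ± 0.727 and SLC7A11 at 4.75 ± 0.326 FPKM in WT HCT116. In WT U-87 MG they had the same order, at 71.1 ± 3.299, 9.602 ± 0.421, 6.22 ± 0.363 and 3.59 ± 0.251 FPKM. In HCT116 KO libraries SLC7A11, at 9.999 ± 0.714 FPKM, stood above GCLM, at 4.72 ± 0.542 FPKM, so the order of these genes was exchanged there.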

How the data were processed

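Per the submitters' processing notes, the tools were STAR 2.5.2, featureCounts 1.6.1 and Cufflinks 2.2.1, with the genome build GRCh38. The authors deposited integer counts for each gene symbol and FPKM for each symbol, per library. Per the labels' protocols, libraries were stranded, with 50 bp single (HCT116) or paired (U-87 MG) reads. The sources used here do not give the strand setting, the handling of multiply aligned reads or how pairs were counted.

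The counts were tested with edgeR 4.0.16 in R 4.3.3 (quasi-likelihood F-test, robust, TMM factors, filterByExpr) within each line, and in 1 fit of 12 libraries for the difference between lines and the WT lines. Adjusted p-values cover all genes tested. CPM are TMM-scaled within a line, and SE is the log2 fold change divided by the square root of F. Alternatives were DESeq2 1.42.0, no filter, limma 3.58.1 on log2(FPKM + 1) or log2(FPKM + 0.1), a fold above 2, a replicate block and leaving out each library. The code was tested on simulated data. Positions, overlaps and shared stretches of 50 bases are from GENCODE release 44, promoters from RefSeq (GRCh38.p14). All members are named, with values per library for those called and for GCLC, GCLM, SLC7A11, NQO1, NFE2L2 and KEAP1, and up to 3 called genes per pathway list and line are named. No measured value enters the rule for the members, but they and the lists were chosen with earlier results of these data known.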

Additional observations from a re-analysis of the deposited data

Results flagged for a closer look

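The KO effect of 7 members differed between HCT116 and U-87 MG in edgeR's interaction test, beside 16.9% of all genes called. With U-87 MG subtracted from HCT116, the log2 values differed by 1.23 for SLC7A11, 0.89 for GGT1 and 0.78 for GGT7, which were higher in KO cells of HCT116 and not called in U-87 MG. The difference was -1.09 for GCLM, which fell in HCT116, and -0.90 for CTH and -0.91 for HAGH, which rose in U-87 MG. PRDX1, at -0.80, was called in neither line by itself and lay in opposite directions in them. GGT1 is on chromosome 22, whose tested genes had a median log2 fold change of -0.97 in U-87 MG, and 32.9% of its 50-base stretches recur elsewhere in the genome, and the part of either in its difference was not tested.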

How the results depend on the processing

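No called member changed direction under any alternative. With DESeq2, without the filter and with the replicate block the counts of called members stayed at 6 in HCT116, 5 in U-87 MG and 7 for the difference, and the block gave 1680, 2221 and 2641 called genes in all. Same-numbered KO and WT libraries of U-87 MG correlated between -0.01 and 0.03 in their deviations. In HCT116, KO and WT replicate 3 correlated at 0.23, beside -0.15 to -0.10 for either with replicates 1 and 2. HCT116 replicates 1 and 2 gave 0.07 and 0.06 with the same number and 0.10 and 0.06 with the other. A factor shared by replicate 3 in HCT116 was not tested, and the labels do not say that numbers pair libraries. On log2(FPKM + 1), 1069 genes were called in HCT116 (567 higher and 502 lower, against 1100 and 572 on counts) and 3 members in U-87 MG. On log2(FPKM + 0.1), 11 members were called for the difference, AKR1C1, AKR1C2, GSR and PRDX4 being added. A fold above 2 left 1 member and 556 genes in HCT116, 2 members and 1344 genes for the difference, 13 members between the WT lines, and 882 genes but 0 members in U-87 MG with edgeR (0 with DESeq2, and 23 at an unadjusted p under 0.05). Leaving out each library gave 6 to 7, 4 to 5, 7 to 9 and 21 to 22 called members in HCT116, in U-87 MG, for the difference and between the WT lines. The cause of these changes was not tested. Depth limits AKR1C1, AKR1C2, AKR1C3 and ANPEP in HCT116, which held 0 to 9 counts per library.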
